A study of Canis lupus familiaris with 16 samples.

Results

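The nuclear factor kappa B (NF-kappaB) pathway was followed through 10 genes: the transcription factor subunits NFKB1 and RELB, the inhibitors NFKBIA and TNFAIP3, the inhibitor of apoptosis proteins (IAPs) BIRC2, BIRC3 and XIAP, and the chemokines CXCL8, CCL2 and CCL20. They were taken by symbol from gene count tables of 39543 symbols, and each of the 10 had 1 entry in every table. The tables came from KU-cHCC-001 and KU-cHCC-002 and from KU-cHCC-004 and KU-cHCC-005, 4 cell lines established from hepatic tumours of dogs and labelled as canine hepatocellular carcinoma. Each line was kept for 24 h with sorafenib at 30 µM, with its vehicle dimethyl sulfoxide (DMSO), with toceranib at 15 µM, or with Dulbecco's phosphate-buffered saline (DPBS), the vehicle of toceranib, in a medium with fetal bovine serum. There was 1 library per line and treatment, 16 in all, so the 4 lines served as the replicates of a treatment and no line was repeated. Sorafenib inhibits RAF and receptor tyrosine kinases, and toceranib, a veterinary drug, inhibits KIT and other receptor tyrosine kinases.

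NF-kappaB dimers are held in the cytoplasm by IkappaB proteins until receptor signals activate the IkappaB kinases, which mark IkappaB for degradation. The freed dimers switch on genes for chemokines, for survival proteins and for the pathway's own inhibitors, so that NFKBIA and TNFAIP3 are both brakes on the pathway and classic readouts of it. In the liver the pathway is known for its part in inflammation and in hepatocyte survival.

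Total counts ran from 12008366 to 21943572 per library. Levels are given as CPM, the reads of a gene relative to the size of its library, scaled by the trimmed mean of M values (TMM), with KU-cHCC-001 first, then KU-cHCC-002 and KU-cHCC-004, and KU-cHCC-005 last wherever 4 values follow each other. Gene lengths of the counting annotation were not used here, so levels are compared between libraries and never between genes. The hepatocyte transcripts ALB and TTR were near 0, with ALB at no more than 0.424 CPM and TTR at no more than 0.238 CPM in any library, while KRT7, a keratin of bile duct cells, was at 242 CPM or more in all 16. Some other hepatocyte markers were present. HNF4A ran from 2.69 CPM with sorafenib to 119 CPM with DPBS, and APOB from 0.0844 CPM with toceranib to 167 CPM with DPBS. Of 13 hepatocyte markers with an entry, 4, 3, 4 and 2 reached 5 CPM with DMSO, sorafenib, toceranib and DPBS. The DPBS libraries did not carry the character of 4 lines. L1CAM, an adhesion molecule, was at 1131 CPM in KU-cHCC-001 with DMSO and at 1.503 CPM in the DPBS library labelled with that line. KRT19, another bile duct keratin, was at 21.4 and 2522 CPM in the same libraries. The DPBS libraries formed 2 close pairs, KU-cHCC-005 with KU-cHCC-002 and KU-cHCC-004 with KU-cHCC-001 by their labels, whose median squared count difference was 2.27 and 2.41 times that of sampling noise over 11504 genes, against 10.9 for the next closest pair of any libraries. COL3A1, a fibrillar collagen, had no read in the 8 DMSO and sorafenib libraries but reached 72.5 CPM with DPBS in the library labelled KU-cHCC-002 and 80.4 CPM in that labelled KU-cHCC-005. It was at 6.54 and 51.7 CPM in the toceranib libraries labelled KU-cHCC-004 and KU-cHCC-005. By the same measure these 2 toceranib libraries lay 10.99 from each other but 31.6 and 36.0 from DMSO of their own line. Toceranib of KU-cHCC-002 lay 18.6 from a DPBS library labelled KU-cHCC-004 and 64.7 from its own DMSO. Such distances were not particular to toceranib, since sorafenib of KU-cHCC-004 lay 35.4 from sorafenib of KU-cHCC-005 and 60.8 from its own DMSO. With the COL3A1 reads, the toceranib labels are in doubt too. Both drugs were therefore set against DMSO of the same line, and the effect of toceranib and the difference between its DPBS vehicle and DMSO cannot be told apart in that contrast. Both contrasts share the DMSO libraries.

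Sorafenib was accompanied by more mRNA of 2 IAPs, XIAP and BIRC2, in all 4 lines, and by no called difference in the factors, inhibitors or chemokines. A difference was called at an adjusted p under 0.05 in edgeR's quasi-likelihood test over 12 libraries, with the cell line as a block and Benjamini-Hochberg adjustment over 14938 genes. All 10 genes passed the filter on low counts. With sorafenib 2 of the 10 were called higher and 0 lower, while 19.6% of all genes tested were called, 9.59% higher and 10.1% lower. The number of called members was thus close to that over all genes. The members' median log2 difference was -0.26, against -0.02 over all genes. In bulk RNA, fewer cells that express a gene and less RNA per cell cannot be told apart.

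**Figure D1:**
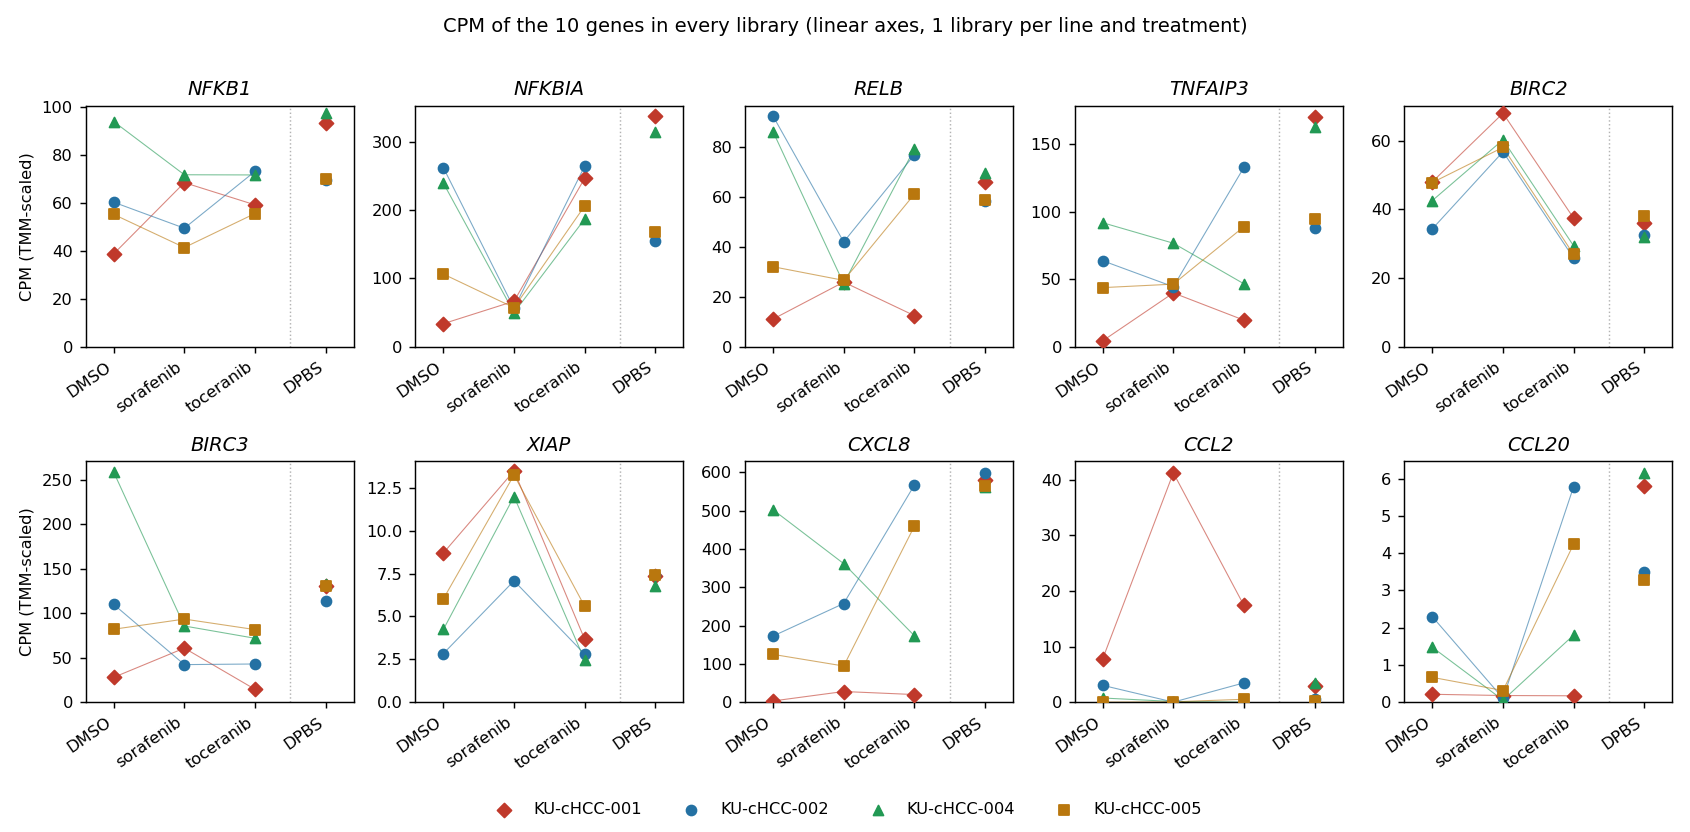
Level of each of the 10 genes in CPM (TMM-scaled, linear axis) by treatment, 1 point per library, with lines joining the libraries of 1 cell line and the DPBS libraries set apart. BIRC2 and XIAP are higher with sorafenib than with DMSO in every line, and NFKBIA comes to between 49.8 and 66.5 CPM in the 4 sorafenib libraries. Among the DMSO, sorafenib and toceranib libraries CCL2 is highest in those of KU-cHCC-001.

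NFKB1 encodes p105, the precursor of the p50 subunit. Its level was 38.8, 60.3, 94.0 and 55.2 CPM with DMSO and 68.5, 49.5, 71.8 and 41.4 CPM with sorafenib. It was higher with sorafenib in KU-cHCC-001 and lower in the other 3 lines, and the groups overlapped (log2 difference -0.09 ± 0.21 (SE), adjusted p = 0.804, edgeR). With toceranib it was 59.2, 73.2, 71.7 and 55.6 CPM, within the range of the DMSO libraries (log2 difference 0.11 ± 0.21, adjusted p = 0.778, edgeR).

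RELB encodes the subunit that pairs with p52 in the non-canonical branch. It stood at 11.1, 92.3, 86.1 and 32.0 CPM with DMSO and at 25.9, 42.0, 25.3 and 26.6 CPM with sorafenib. The DMSO libraries were spread widely and the sorafenib libraries lay close together, with KU-cHCC-002 above the rest. KU-cHCC-001 had more with sorafenib and the other lines less, and no difference was called over the 4 lines (log2 difference -0.45 ± 0.43, adjusted p = 0.501, edgeR). Without KU-cHCC-001 it was -1.09 and was called (adjusted p = 0.0131, edgeR). With toceranib RELB was at 12.5, 76.8, 79.1 and 61.0 CPM, and KU-cHCC-001 was the lowest, as with DMSO (log2 difference 0.16 ± 0.41, adjusted p = 0.839, edgeR). That small toceranib difference turned to -0.10 without the toceranib library of KU-cHCC-005, and to -0.40 without those of KU-cHCC-004 and KU-cHCC-005.

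NFKBIA encodes IkappaBalpha, the inhibitor that NF-kappaB induces against itself. With DMSO it was at 33.7, 262, 239 and 106 CPM, and with sorafenib at 66.5, 56.2, 49.8 and 57.1 CPM. KU-cHCC-001 had 1.97 times its DMSO level, whereas the other lines had 0.214, 0.208 and 0.538 times theirs, in the same order. Over the 4 lines the difference missed the threshold (log2 difference -1.31 ± 0.46, adjusted p = 0.0673, edgeR). Without KU-cHCC-001 it was -1.84 on the log2 scale and was called (adjusted p = 0.0012, edgeR). DESeq2 called it in the 4 lines (adjusted p = 0.013). With toceranib NFKBIA was at 246, 264, 187 and 206 CPM, and the 4 libraries were closer to each other than those with DMSO. The toceranib level of KU-cHCC-001 was 7.31 times its DMSO level, and the difference over the 4 lines was not called (log2 difference 0.65 ± 0.45, adjusted p = 0.371, edgeR).

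TNFAIP3 encodes A20, a ubiquitin-editing enzyme that shuts off signalling upstream of the IkappaB kinases. Its level was 4.35, 63.6, 91.8 and 43.7 CPM with DMSO, 39.8, 44.4, 76.6 and 46.3 CPM with sorafenib, and 19.6, 133, 46.5 and 88.9 CPM with toceranib. KU-cHCC-001 with DMSO was the lowest library, and its sorafenib library had 9.15 times as much. The other lines had 0.698, 0.835 and 1.06 times their DMSO level with sorafenib. Neither drug's difference was called, sorafenib at 0.53 ± 0.56 (adjusted p = 0.543) and toceranib at 0.69 ± 0.54 on the log2 scale (adjusted p = 0.433, edgeR). The sorafenib value was -0.23 without KU-cHCC-001.

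BIRC2 encodes cIAP1, a ubiquitin ligase that restrains the non-canonical branch by keeping its kinase NIK low. It was at 48.1, 34.4, 42.6 and 47.8 CPM with DMSO, 68.0, 56.8, 60.3 and 58.1 CPM with sorafenib, and 37.5, 25.8, 29.4 and 26.9 CPM with toceranib. All 4 sorafenib libraries lay above all 4 DMSO libraries, and the toceranib library was the lowest of the 3 in each line. BIRC2 rose 1.40-fold with sorafenib (log2 difference 0.48 ± 0.15, adjusted p = 0.0392, edgeR). It fell with toceranib by 0.54 ± 0.15 on the log2 scale, just inside the threshold (adjusted p = 0.0496, edgeR). The sorafenib call was lost without KU-cHCC-002, KU-cHCC-004 or KU-cHCC-005, with adjusted p between 0.0991 and 0.175, though the difference stayed between 0.40 and 0.59. It was also lost without the cell line as a block (adjusted p = 0.183) and without a filter on low counts (adjusted p = 0.0922, edgeR). The toceranib call was lost under 9 of 12 alternatives, where adjusted p reached 0.332 and the difference stayed between -0.59 and -0.43.

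XIAP encodes the IAP that inhibits caspases directly. It was at 8.70, 2.83, 4.24 and 6.03 CPM with DMSO and at 13.5, 7.07, 11.99 and 13.3 CPM with sorafenib. Every line had more with sorafenib, and only the library of KU-cHCC-002 fell inside the range of the DMSO libraries. XIAP rose 2.16-fold (log2 difference 1.11 ± 0.28, adjusted p = 0.0208, edgeR). The call was lost without KU-cHCC-002, KU-cHCC-004 or KU-cHCC-005, with adjusted p between 0.0955 and 0.132, and without the cell line as a block (adjusted p = 0.206, edgeR). With toceranib it was at 3.67, 2.80, 2.45 and 5.59 CPM, lower than with DMSO in 4 of 4 lines but by little in KU-cHCC-002 and KU-cHCC-005 (log2 difference -0.54 ± 0.29, adjusted p = 0.25, edgeR).

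BIRC3 encodes cIAP2, the close relative of cIAP1 that is itself an NF-kappaB target. In the RefSeq table of the UU_Cfam_GSD_1.0 assembly BIRC2 and BIRC3 are separated by 1 protein-coding gene, and how reads shared by such relatives were counted is not given in the sources used here. BIRC3 was at 27.9, 110, 258 and 81.9 CPM with DMSO and at 60.7, 42.2, 85.6 and 93.4 CPM with sorafenib. It was higher with sorafenib in KU-cHCC-001 and KU-cHCC-005 and lower in the other 2 lines (log2 difference -0.42 ± 0.43, adjusted p = 0.517, edgeR). With toceranib it was at 14.4, 42.9, 71.8 and 81.5 CPM, below DMSO in 4 of 4 lines though barely in KU-cHCC-005, and the difference was not called (log2 difference -1.10 ± 0.42, adjusted p = 0.117, edgeR). Without KU-cHCC-001 the sorafenib difference was -1.01 and was called (adjusted p = 0.0425, edgeR), and without KU-cHCC-004 it was 0.03.

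**Figure D2:**
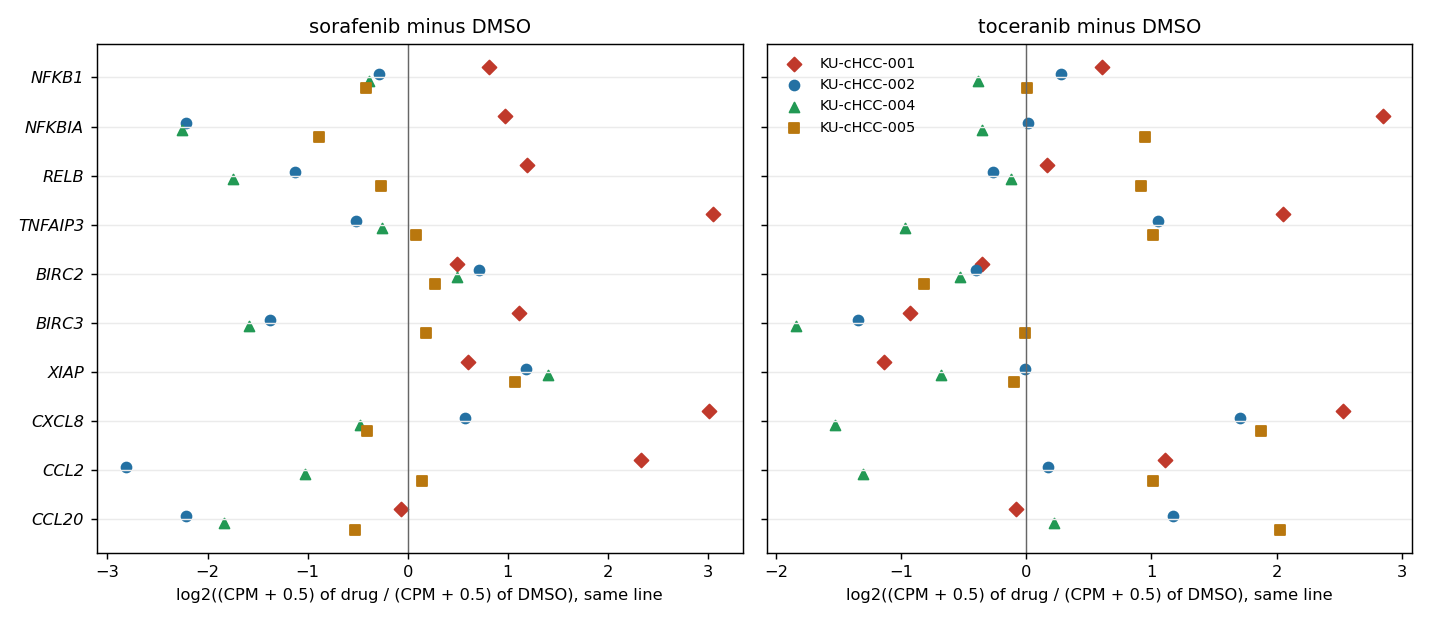
Difference from DMSO of the same line on the log2(CPM + 0.5) scale for the 10 genes, with sorafenib on the left and toceranib on the right, 1 point per line. With sorafenib KU-cHCC-001 is to the right of 0 for NFKB1, NFKBIA and RELB while the other 3 lines are to the left, and all 4 lines are to the right for BIRC2 and XIAP.

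CXCL8, which draws neutrophils, ran from 2.99 CPM to 566 CPM in the DMSO, sorafenib and toceranib libraries. It was at 2.99, 172, 502 and 125 CPM with DMSO, 27.6, 257, 362 and 94.2 CPM with sorafenib, and 19.7, 566, 174 and 459 CPM with toceranib. KU-cHCC-001 was the lowest line under each of these treatments. With sorafenib KU-cHCC-001 and KU-cHCC-002 were higher and the other 2 lines lower than with DMSO, and with toceranib KU-cHCC-004 alone was lower. Neither difference was called, sorafenib at 0.56 ± 0.64 (adjusted p = 0.574) and toceranib at 1.16 ± 0.66 on the log2 scale (adjusted p = 0.275, edgeR).

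CCL2, which draws monocytes, was found mainly in KU-cHCC-001. That line gave 149 reads with DMSO, 936 with sorafenib and 412 with toceranib, or 7.81, 41.3 and 17.4 CPM. KU-cHCC-002 gave 50, 0 and 58 reads under the same treatments, KU-cHCC-004 gave 13, 2 and 0, and KU-cHCC-005 gave 0, 1 and 6. In the 3 libraries with no read, a count of 0 allows up to 3 counts, or 0.148 to 0.158 CPM of the unscaled library total, and this covers counting error only. KU-cHCC-001 had 5.28 times its DMSO level with sorafenib while KU-cHCC-002 went from 3.01 CPM to no read, and no drug difference was called over the 4 lines (adjusted p = 0.844 for sorafenib and 0.954 for toceranib, edgeR).

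CCL20, which draws cells with the receptor CCR6, was low throughout. It gave 4, 38, 26 and 12 reads with DMSO, 4, 2, 1 and 6 reads with sorafenib, and 4, 97, 33 and 50 reads with toceranib. KU-cHCC-001 had the same few reads under all 3 treatments, and the other lines had fewer with sorafenib and more with toceranib. The sorafenib difference missed the threshold (log2 difference -2.55 ± 0.83, adjusted p = 0.0521, edgeR), and without KU-cHCC-001 it was -3.21 and called (adjusted p = 0.00768). It was also called by DESeq2 (adjusted p = 0.0157) and without a filter on low counts (adjusted p = 0.0406, edgeR). The toceranib difference was not called (log2 difference 1.13 ± 0.67, adjusted p = 0.295, edgeR).

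With toceranib against DMSO, 1 of the 10 genes was called, BIRC2, which was lower, against 7.46% of all genes tested, 4.31% higher and 3.15% lower. Leukocyte markers were looked at beside the chemokines, since chemokines are also made by immune cells. Of 20 markers, 20 had entries, and their summed level was 17.7 to 89.7 CPM with DMSO, 18.8 to 68.5 CPM with sorafenib and 63.8 to 340.1 CPM with toceranib. The highest sum was that of KU-cHCC-001 with toceranib, of which CD74 made up 321 CPM, while CD14 made up most of the others. The defining markers CD3E and MS4A1 had no read in any library, and PTPRC was at no more than 0.442 CPM. Mesenchymal markers, 14 of 14 with entries, summed to 2071 to 13149.7 CPM with DMSO, 2454 to 9736 CPM with sorafenib and 1923 to 9037 CPM with toceranib, and their part in the toceranib values was not tested. VIM and FN1 made up most of each of these sums.

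The sorafenib and toceranib libraries were also set against each other, with the proviso that the doses and vehicles differ. Here 4 of the 10 genes were called, 2 higher and 2 lower with sorafenib, beside 38.4% of all genes tested, 18.3% higher and 20.1% lower. BIRC2 was higher with sorafenib by 1.02 ± 0.15 (adjusted p = 6.38e-04) and XIAP by 1.66 ± 0.29 on the log2 scale (adjusted p = 0.00172, edgeR), each in 4 of 4 lines and under all 12 alternatives. NFKBIA was lower by -1.97 ± 0.45 on the log2 scale (adjusted p = 0.00633, edgeR), and the highest sorafenib library, at 66.5 CPM, was below the lowest toceranib library, at 187 CPM. That call was lost without a filter on low counts (adjusted p = 0.0643, edgeR). CCL20 was lower by -3.68 ± 0.81 on the log2 scale (adjusted p = 0.00535, edgeR) in 3 of 4 lines. Its call was lost without KU-cHCC-002 (adjusted p = 0.0535) and without the toceranib libraries of KU-cHCC-004 and KU-cHCC-005 (adjusted p = 0.0668). RELB, TNFAIP3, BIRC3, CXCL8 and NFKB1 were not called, with log2 differences of -0.60, -0.17, 0.68, -0.59 and -0.20 and adjusted p of 0.289, 0.831, 0.221, 0.483 and 0.486, nor was CCL2 (adjusted p = 0.738).

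**Figure D3:**
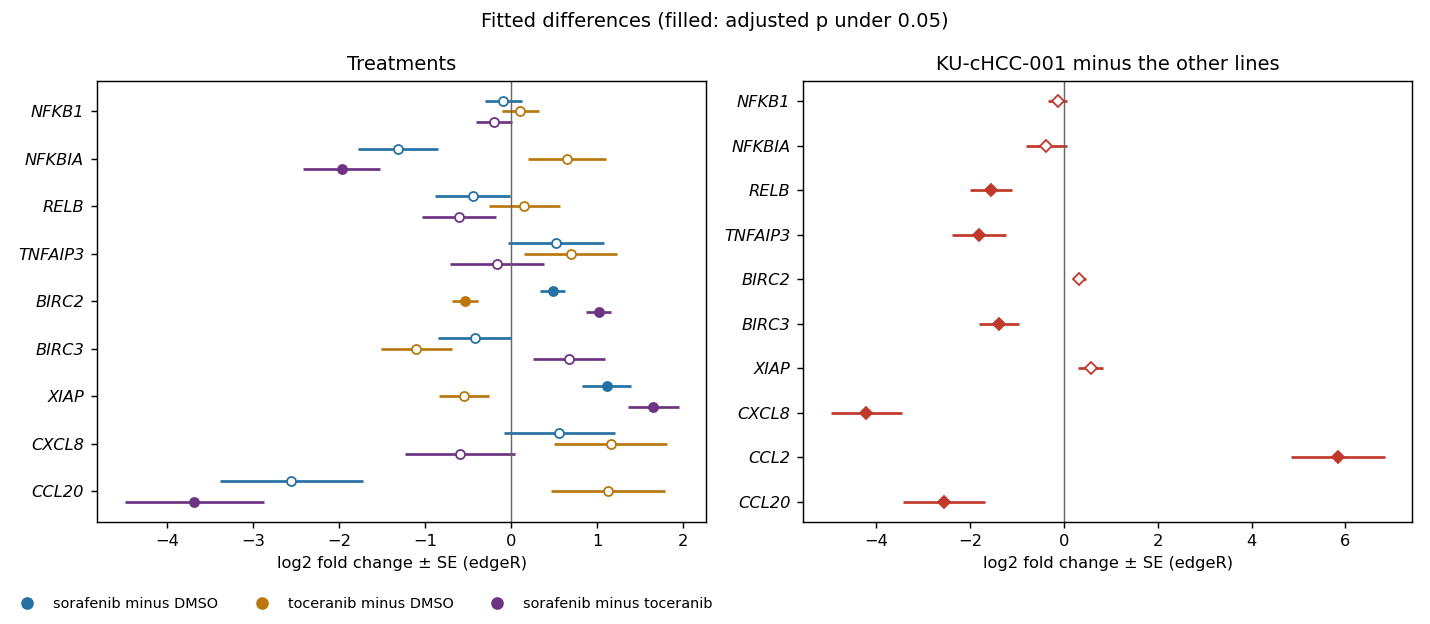
Fitted log2 fold changes ± SE (edgeR, 12 libraries) of the members for the treatments on the left, without CCL2, and for KU-cHCC-001 minus the mean of the other lines on the right. Filled symbols passed an adjusted p of 0.05: BIRC2 and XIAP to the right for sorafenib minus DMSO, and BIRC2 to the left for toceranib minus DMSO. For sorafenib minus toceranib they are BIRC2 and XIAP to the right and NFKBIA and CCL20 to the left. For the line they are CCL2 far to the right, CXCL8 far to the left, and RELB, BIRC3, TNFAIP3 and CCL20 to the left.

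Among the members, 2 chemokines differed most between KU-cHCC-001 and the other lines, while the number of members called between the 4 lines was close to that over all genes. An F-test of the 4 lines over the DMSO, sorafenib and toceranib libraries called 4 of the 10 genes, CXCL8 (adjusted p = 0.00541), CCL2 (adjusted p = 0.00431), BIRC3 (adjusted p = 0.0398) and RELB (adjusted p = 0.0409, edgeR), beside 42.1% of all genes tested. KU-cHCC-001 was set against the mean of the other 3 lines, a contrast taken up with earlier results of these data known. It called 6 of the 10 members, 1 higher and 5 lower, while 43.8% of all genes were called, 24.3% higher and 19.5% lower. CCL2 was higher in KU-cHCC-001 by 5.84 ± 1.00 on the log2 scale (adjusted p = 6.99e-04, edgeR). CXCL8 was 18.6-fold lower (log2 difference -4.21 ± 0.76, adjusted p = 0.00104, edgeR), and these 2 chemokines kept their calls under all 6 alternatives. RELB differed by -1.56 ± 0.45 (adjusted p = 0.0147), BIRC3 by -1.38 ± 0.43 (adjusted p = 0.022), TNFAIP3 by -1.82 ± 0.58 (adjusted p = 0.0244) and CCL20 by -2.56 ± 0.87 on the log2 scale (adjusted p = 0.0333, edgeR).

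The other 4 members did not pass in that contrast. BIRC2 was at 0.33 ± 0.13 (adjusted p = 0.0681), XIAP at 0.57 ± 0.26 (adjusted p = 0.0991), NFKBIA at -0.38 ± 0.43 (adjusted p = 0.509) and NFKB1 at -0.13 ± 0.20 on the log2 scale (adjusted p = 0.626, edgeR). Without a filter on low counts, RELB, TNFAIP3 and BIRC3 lost their calls (adjusted p = 0.0793, 0.133 and 0.106), as they did in the 8 DMSO and sorafenib libraries alone (adjusted p = 0.0927, 0.0781 and 0.113, edgeR). XIAP was called in those 8 libraries (adjusted p = 0.0219, edgeR). CCL20 lost its call without KU-cHCC-002 (adjusted p = 0.0675) or KU-cHCC-005 (adjusted p = 0.056). Other markers moved with this contrast: with DMSO the 11 markers of bile duct and progenitor cells summed to 1284 CPM in KU-cHCC-001 and to between 9497 and 14338 CPM in the other lines, and the 14 mesenchymal markers to 13149.7 CPM and to between 2071 and 2561 CPM. VIM and FN1 made up most of the mesenchymal sum of KU-cHCC-001, at 6734 and 6294 CPM. COL3A1, LUM, DCN, POSTN and FAP had no read in any DMSO library. The part of these markers in the members' values was not tested.

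Whether a drug acted differently in KU-cHCC-001 was tested as an interaction with 4 residual degrees of freedom. KU-cHCC-001 has 1 library per treatment and is fitted exactly there, so the spread comes from the other 3 lines alone and KU-cHCC-001 is assumed to vary like them. For sorafenib, 0 of the 10 members and 0% of 14938 genes were called, with 1057 genes at an unadjusted p under 0.05, while the same fit without a filter on low counts called 74 genes. NFKBIA differed by 2.80 ± 0.53 on the log2 scale (unadjusted p = 3.14e-04, adjusted p = 0.283, edgeR), RELB by 2.29 ± 0.54 (adjusted p = 0.339), TNFAIP3 by 3.41 ± 0.87 (adjusted p = 0.407), BIRC3 by 2.11 ± 0.65 (adjusted p = 0.516) and NFKB1 by 1.17 ± 0.35 (adjusted p = 0.46). Without the filter NFKBIA and RELB were called (adjusted p = 0.00284 and 0.0211, edgeR). For toceranib 0 of the 10 members were called against 0.743% of all genes. NFKBIA was closest, at 2.68 ± 0.53 (adjusted p = 0.0518, edgeR), and it was called without a filter (adjusted p = 5.02e-04) and without KU-cHCC-005 (adjusted p = 0.0363).

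The labelled vehicle of toceranib gave no called member in either direction. With DPBS, NFKB1 was at 93.4, 69.8, 97.6 and 70.0 CPM, NFKBIA at 337, 155, 315 and 167 CPM, and RELB at 66.0, 58.4, 69.7 and 58.7 CPM. TNFAIP3 was at 170.0, 87.8, 163 and 94.4 CPM, with the same split into 2 pairs of libraries as NFKBIA. BIRC2 was at 36.0, 32.5, 31.8 and 38.2 CPM, BIRC3 at 130, 114, 133 and 131 CPM, and XIAP at 7.35, 7.41, 6.75 and 7.39 CPM. CXCL8 was at 579, 599, 561 and 564 CPM, closer together than under any other treatment. CCL2 gave 54, 8, 57 and 4 reads and CCL20 gave 108, 59, 104 and 59 reads, again in 2 pairs.

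Toceranib minus DPBS called 0% of 15515 genes in a fit of all 16 libraries with edgeR, where 1875 genes had an unadjusted p under 0.05 and DESeq2 called 270. BIRC3 was at -1.53 ± 0.48 (adjusted p = 0.281) and XIAP at -1.07 ± 0.30 on the log2 scale (adjusted p = 0.229, edgeR), and DESeq2 called both (adjusted p = 0.0412 and 0.0351). DPBS minus DMSO called 4.63% of genes, 2.91% higher and 1.72% lower, and 0 of the 10 members, of which 4 had an unadjusted p under 0.05. That fit blocks the DPBS libraries by line labels they do not match and counts 2 close pairs as 4 libraries. As 2 summed pairs without a block 0 genes were called, and without KU-cHCC-002, KU-cHCC-004 or KU-cHCC-005 no more than 2. The 4 members were CXCL8 at 2.88 ± 1.12 (adjusted p = 0.144), CCL20 at 2.43 ± 0.85 (adjusted p = 0.103), TNFAIP3 at 1.75 ± 0.72 (adjusted p = 0.164) and BIRC2 at -0.31 ± 0.13 on the log2 scale (adjusted p = 0.174, edgeR). Without the libraries of KU-cHCC-001, where CXCL8 with DPBS was 194 times its DMSO level, CXCL8 was at 1.29, TNFAIP3 at 0.82 and CCL20 at 1.64. DESeq2 called CXCL8, TNFAIP3 and CCL20 (adjusted p = 0.02, 0.0307 and 0.0222).

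The rest of the pathway was read from 12 lists of NF-kappaB subunits, regulators, IAP-related genes, chemokines and target genes, of which 91 tested genes were no members. With sorafenib 12 of the 91 rose and 6 fell, or 19.8%, and with toceranib 4 were called higher and 5 lower against DMSO, or 9.89%, both close to the 19.6% and 7.46% over all genes. None of the 5 subunits and none of the 6 IkappaB genes was called with either drug. RELA, the main activating subunit, was at 142 ± 44.6 CPM with DMSO, 109 ± 21.4 CPM with sorafenib and 84.2 ± 6.95 CPM with toceranib (SD, n = 4).

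Upstream of NF-kappaB, the kinase gene MAP3K7 (TAK1) rose with sorafenib by 0.62 ± 0.14 on the log2 scale (adjusted p = 0.0113, edgeR). Of 20 receptors and adaptors 3 rose and 2 fell with sorafenib, beside 9.59% of all genes higher and 10.1% lower. TRAF3, which works with BIRC2 to keep NIK low, went from 32.8 ± 3.37 to 75.3 ± 11.7 CPM (SD, n = 4; adjusted p = 0.00661, edgeR). IRAK2 rose by 1.01 and IL1RAP by 1.22 on the log2 scale (adjusted p = 0.00843 and 0.0256), both parts of interleukin-1 signalling, and the shared adaptor MYD88 fell by 0.92 (adjusted p = 0.0191, edgeR). MYD88 was also called lower with toceranib than with DMSO (log2 difference -0.90, adjusted p = 0.0426, edgeR), a call lost without the cell line as a block. Its mean was 96.0 CPM with DMSO, 49.7 CPM with sorafenib, 51.6 CPM with toceranib and 49.4 CPM with DPBS. The mean of IRAK2 was 8.08 CPM with DMSO, 16.3 CPM with sorafenib, 13.2 CPM with toceranib and 14.7 CPM with DPBS. IRAK2 was also called higher with DPBS than with DMSO (log2 difference 0.89, adjusted p = 0.0311, edgeR). That call was lost with the DPBS libraries as 2 summed pairs. Among 12 deubiquitinases and other brakes, with the same shares over all genes, CYLD, ITCH and TAX1BP1 rose by 0.76, 0.70 and 0.82 (adjusted p = 0.0485, 0.0235 and 0.00639), and TNIP2 fell by 1.36 (adjusted p = 0.00608, edgeR).

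**Figure D4:**
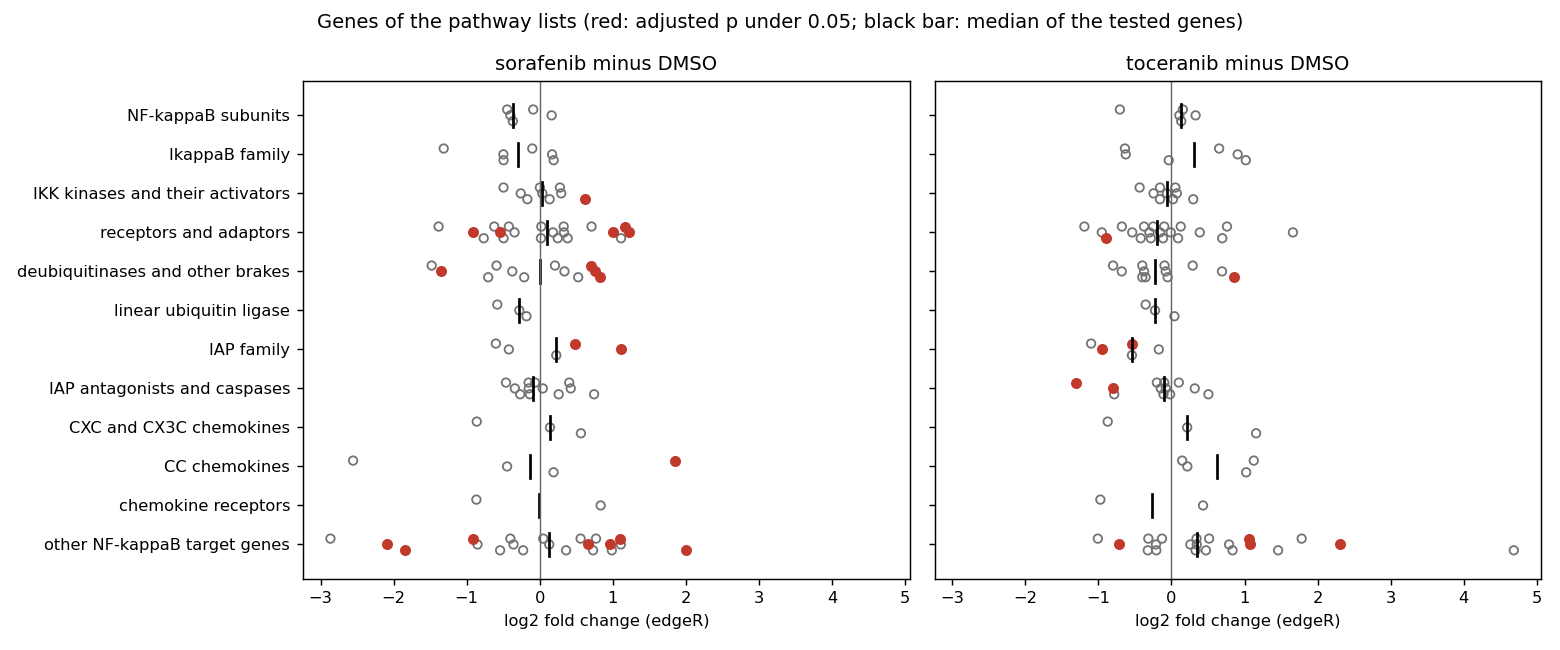
Fitted log2 fold changes (edgeR) of all tested genes of the 12 pathway lists, members included, for sorafenib minus DMSO on the left and toceranib minus DMSO on the right, 1 point per gene, red where adjusted p was under 0.05 and with a black bar at each list's median. Red points lie on both sides of 0 for the receptors, the brakes and the target genes with sorafenib, and the subunit and IkappaB lists hold no red point.

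Of 21 other NF-kappaB target genes 4 rose and 3 fell with sorafenib, again beside 9.59% and 10.1% of all genes. GADD45B, a stress-response gene, rose by 0.97 ± 0.18, IL11, a cytokine, by 2.0 ± 0.42 and CSF1, the macrophage growth factor, by 1.10 ± 0.28 on the log2 scale (adjusted p = 0.00522, 0.0096 and 0.0199, edgeR). IL11 was low, at a mean of 0.881 CPM with DMSO and 3.46 CPM with sorafenib. CSF1 had a mean of 16.6 CPM with DMSO, 34.2 CPM with sorafenib, 29.4 CPM with toceranib and 38.1 CPM with DPBS. CFB, a complement factor, fell by 1.85 ± 0.44 on the log2 scale (adjusted p = 0.0158, edgeR). With toceranib 3 were called higher and 1 lower, beside 4.31% and 3.15% of all genes: GADD45B at 1.07, IER3 at 1.07 and LTB at 2.31, and BCL2L1, which encodes the survival protein BCL-XL, at -0.71 on the log2 scale (adjusted p = 0.0156, 0.0392, 0.0323 and 0.0339, edgeR). LTB was low, at a mean of 1.61 CPM with DMSO, 4.91 CPM with toceranib and 6.06 CPM with DPBS. In KU-cHCC-001 it was at no more than 0.296 CPM with DMSO, sorafenib or toceranib.

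Among the IAP-related lists, toceranib minus DMSO called 2 of 5 IAPs and 2 of 12 caspases and IAP antagonists, all lower, beside 3.15% of all genes. Besides BIRC2, the mitotic IAP gene BIRC5 (survivin) went from 66.6 ± 16.7 to 34.4 ± 9.10 CPM (SD, n = 4; adjusted p = 0.029, edgeR), and it was also lower with DPBS than with DMSO (log2 difference -0.84, adjusted p = 0.0466, edgeR), a call that was lost with the DPBS libraries as 2 summed pairs. CASP8, the initiator caspase of death receptors, was at -1.31 ± 0.29 and its adaptor FADD at -0.80 ± 0.22 on the log2 scale (adjusted p = 0.0285 and 0.0494, edgeR). The other 10 of 12 caspases and IAP antagonists were not called. The toceranib calls of non-members, here and among the target genes, were all lost without the cell line as a block and without the toceranib libraries of KU-cHCC-004 and KU-cHCC-005, where 0 genes were called. Without KU-cHCC-002, KU-cHCC-004 or KU-cHCC-005 no more than 7 genes were called in all.

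In KU-cHCC-001 against the other lines, 15 of the 91 other pathway genes were higher and 20 lower, or 38.5%, below the 43.8% over all genes. Among the 21 other target genes 3 were higher and 9 lower, beside 24.3% and 19.5% of all genes. PTGS2, which encodes COX-2, was at 0.577 to 1.63 CPM in the 3 KU-cHCC-001 libraries and at 12.8 to 103 CPM in the other 9 (log2 difference -5.22 ± 0.64, adjusted p = 7.07e-05, edgeR). The survival gene BCL2A1 was at 8.91 to 22.04 CPM against 18.0 to 100 CPM (log2 difference -1.93, adjusted p = 6.31e-04, edgeR). The kinase gene IKBKE was at 50.9 to 77.1 CPM against 168 to 291 CPM, with no overlap (adjusted p = 8.05e-05, edgeR). TRADD, the adaptor of the tumour necrosis factor receptor, was the other way round, at 89.5 to 126 CPM against 24.3 to 40.7 CPM (adjusted p = 2.54e-06, edgeR).

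Few other chemokines were present. Of 9 CXC and CX3C chemokines with an entry, 5 reached 5 CPM in at least 1 of the 16 libraries. CXCL16 reached 255 CPM, CX3CL1 27.1 CPM, CXCL17 6.62 CPM and CXCL10 6.50 CPM. Of 21 CC chemokines with an entry, CCL2 and CCL20 alone reached 5 CPM and 7 had no read. CCL7, which lies next to CCL2 in the RefSeq table, gave 22 reads in all, and CCL5 gave 19. Of 20 chemokine receptors, 2 atypical ones reached 5 CPM, ACKR3 at 42.7 CPM and ACKR4 at 8.17 CPM, and 9 had no read, among them CXCR2, a receptor for CXCL8, and CCR6, the receptor for CCL20. CCR2, the receptor for CCL2, gave 1 read in all. CX3CL1 was higher in KU-cHCC-001 (log2 difference 2.43 ± 0.29, adjusted p = 5.17e-05, edgeR) and CXCL16 lower (-0.91 ± 0.30, adjusted p = 0.0288, edgeR).

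Levels were compared across the 12 DMSO, sorafenib and toceranib libraries as a description, over 10902 genes with a mean of 5 CPM or more; these libraries share lines and treatments, so no test is given. The gene most like RELB was NFKB2, which encodes the precursor of its p52 partner (Pearson r = 0.96 of log2 CPM), followed by IFNAR2 (0.96). TNFAIP3 was most like TCAF2 (0.95) and the member CXCL8 (0.94), and CXCL8 most like TCAF2 (0.97) and PLSCR3 (0.95). BIRC2 was most like GORASP2 and OSBPL8 (both 0.98), XIAP like MARF1 (0.96) and UTP20 (0.94), and BIRC3 like SLC25A28 (0.89) and LASP1 (0.88). NFKB1 was most like TRANK1 (0.87) and CXCL16 (0.85), NFKBIA like DPM2 and LOC119870527 (both 0.94), CCL2 like SUPT6H and DDX11 (both 0.93), and CCL20 like UPF2 (0.94) and C25H2orf72 (0.94). Among the members, BIRC2 and XIAP had an r of 0.85, BIRC2 and CCL20 one of -0.87, and NFKBIA and XIAP one of -0.86.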

How the data were processed

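RNA of 16 libraries was sequenced from directional libraries, per the labels' protocols. The authors deposited whole-number read counts per gene symbol, without normalization. Per the submitters' processing notes, TopHat was used. Not given in the sources used here are its version, the counter with its strand setting and its handling of shared reads, the annotation and the genome build, and for this reason coordinates and sequences are left out. Of 39954 entries per table, 500 shared 89 symbols and were summed, which gave 39543 symbols. Names and neighbours were looked up in the RefSeq table of UU_Cfam_GSD_1.0, where 10 of the 10 members matched.

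Low genes were removed by filterByExpr (groups: treatments), and libraries were scaled by TMM and fitted with edgeR 4.0.16 (robust quasi-likelihood) and limma 3.58.1 in R 4.3.3, with treatment and cell line as terms. A fit of the 12 DMSO, sorafenib and toceranib libraries (14938 genes, 6 residual degrees of freedom, common dispersion 0.0807) gave the drug and line contrasts, and one of 16 libraries (15515 genes, 9 residual degrees of freedom, common dispersion 0.158) those with DPBS. The DPBS libraries stayed out of the first because their line labels are in doubt, more so than those of toceranib. Calls are at an adjusted p under 0.05 (Benjamini-Hochberg, all genes tested). CPM are scaled to the TMM sizes of the 16 libraries, and plotted ratios use a pseudocount of 0.5 CPM. The tests were checked on simulated data with a common dispersion for all genes and the same drug effect in every line. That check does not cover drug effects that differ between lines.

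The cell line is a block because same-numbered libraries are labelled as the same line, which the DPBS libraries do not bear out. Their deviations from the treatment means correlated at 0.504 to 0.891 between the DMSO, sorafenib and toceranib libraries, and each of these libraries matched its own line best in 12 of 12 comparisons, although by squared count differences the toceranib libraries other than that of KU-cHCC-001 lay closer to libraries of other labels. The p-values of treatments and of line contrasts rest on the same spread, the one left after the treatment and line terms. It reflects how unevenly the treatment differences run over the 4 lines, with 1 culture of each line per treatment. Reads carry no molecular identifiers, so counting error understates the error.

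Alternatives were no block, relative log expression (RLE) scaling, no filter, DESeq2 1.42.0, other sets of libraries and leaving out each line. The members, lists and tests were chosen with earlier results of these data known. All 10 members are named. Of each list at most 4 called genes are named per comparison, by adjusted p, or at most the 2 with the highest mean CPM if none was called. For likeness, the 2 genes with the highest r are named per member.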

Additional observations from a re-analysis of the deposited data

Results flagged for a closer look

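In the 40 groups of 4 libraries, 1 member under 1 treatment each, the highest or lowest library was tested for its gap to the nearest other against the whole range (Dixon's test). Chance alone sets apart about 1 in 20 such groups. CCL2 with sorafenib stood apart at 41.3 CPM in KU-cHCC-001, and RELB with sorafenib at 42.0 CPM in KU-cHCC-002. With DPBS, XIAP was lowest at 6.75 CPM in the library labelled KU-cHCC-004 and BIRC3 at 114 CPM in that labelled KU-cHCC-002, where the groups are tight (SD 0.319 and 8.82 CPM).

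With sorafenib NFKB1, NFKBIA and RELB were higher than with DMSO in KU-cHCC-001 and lower in each of the other 3 lines. The effect in KU-cHCC-001 minus that in the others was 1.17, 2.80 and 2.29 on the log2 scale, and the interaction did not pass for any of the 3 (adjusted p = 0.46, 0.283 and 0.339, edgeR). With toceranib CCL20 was lower in KU-cHCC-001 and higher in each of the other 3 lines, but KU-cHCC-001 gave 4 reads under both treatments. The difference of effects was -1.66 ± 1.54 on the log2 scale (adjusted p = 0.604, edgeR).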

How the results depend on the processing

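Of 726 values of the members under an alternative, 635 kept their direction and their side of the threshold and 42 changed direction. The 40 treatment means of CPM moved by less than 1 SD when CPM was taken on total counts without TMM scaling. Depth limits CCL2 and CCL20, where several libraries hold fewer than 10 reads.

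Without the replicate block the number of called genes was 464 for sorafenib minus DMSO (2935 with it), 0 for toceranib minus DMSO (1115), 2159 for sorafenib minus toceranib (5737) and 263 for DPBS minus DMSO (718), and CXCL8 turned to -0.13 on the log2 scale for sorafenib minus DMSO. The block changed no call for toceranib minus DPBS, which stayed at 0 genes. Fits of the 2 arms alone called 5053 genes for sorafenib and 129 for toceranib minus DMSO. With 16 libraries toceranib minus DMSO called 557 genes. DESeq2 called 2335 genes for toceranib minus DMSO, 270 for toceranib minus DPBS and 2140 for DPBS minus DMSO. Without a filter 7 genes were called for toceranib minus DPBS, 343 for DPBS minus DMSO, and 74 and 568 for the sorafenib and toceranib interactions with KU-cHCC-001.

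Without the toceranib library of KU-cHCC-005, 66 genes were called for toceranib minus DMSO and 1 for toceranib minus DPBS, TNFAIP3 turned to 0.039 for sorafenib minus toceranib and RELB to -0.10 for toceranib minus DMSO. Without those of KU-cHCC-004 and KU-cHCC-005, which was added after seeing the data, the counts were 0 for toceranib minus DMSO and 2441 for sorafenib minus toceranib, and RELB was -0.40. Without the DPBS libraries of the labels KU-cHCC-005 and KU-cHCC-002, 503 genes were called for toceranib minus DPBS and 1168 for DPBS minus DMSO. With the DPBS libraries as 2 summed pairs, 0 genes were called for both. These DPBS alternatives were also added later.

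Leaving out each line in turn (for the interactions, each but KU-cHCC-001) gave 596 to 3906 genes for sorafenib minus DMSO, 1 to 3044 for toceranib minus DMSO, 3017 to 6750 for sorafenib minus toceranib, 2470 to 5773 for the line F-test, 0 to 1 for toceranib minus DPBS, 0 to 2007 for DPBS minus DMSO, 1 to 2 for the sorafenib interaction and 25 to 192 for the toceranib interaction. The count for sorafenib or toceranib minus DMSO was highest without KU-cHCC-001. On the log2 scale the members that changed direction ranged, for sorafenib minus DMSO, from -0.37 to 0.0501 for NFKB1, -0.23 to 0.93 for TNFAIP3, -1.01 to 0.0277 for BIRC3 and -0.14 to 1.15 for CXCL8. For toceranib minus DMSO NFKB1 ranged from -0.0012 to 0.28 and RELB from -0.11 to 0.30, for sorafenib minus toceranib TNFAIP3 from -0.74 to 0.30 and CXCL8 from -1.10 to 0.0043, and for KU-cHCC-001 minus the other lines NFKB1 from -0.31 to 0.0057. The cause of these differences was not tested.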
